A study of Mus musculus with 6 samples.

Results

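The clustered protocadherins are the genes of the alpha (Pcdha), beta (Pcdhb) and gamma (Pcdhg) clusters on mouse chromosome 18. They were taken as every gene ID whose symbol begins with Pcdha, Pcdhb or Pcdhg followed by further characters, which gave 58 annotated genes: 14 alpha, 22 beta and 22 gamma. Of these, 42 were listed in at least 1 library, among 15939 gene IDs listed in the whole series. RNA came from nucleus accumbens, a ventral striatal region involved in reward, of C57BL/6N mice that had gone through conditioned place preference, a test in which a drug is paired with a place. The saline group received saline injections and the morphine group was conditioned with morphine, an opioid receptor agonist, and there were 3 libraries in each group (saline 1 to 3 and morphine 4 to 6). The labels give no genotype other than the strain, and no age, sex, dose or time of tissue collection. The design text gives 6 mice per group without saying which mice entered which sample, so p-values measure the spread between libraries. For each library there was a catalogue of transcript structure, listing first exons, last exons and splicing events by gene, and every value below is a number of listed events or positions and not an expression level.

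Clustered protocadherins are cell adhesion proteins of neurons that bind copies of themselves on neighbouring cells and help a neuron tell its own branches from those of others. Each alpha or gamma gene has its own promoter and 1 large variable exon, which encodes the extracellular, transmembrane and proximal cytoplasmic parts and is spliced to 3 constant exons that all genes of the cluster share. Beta genes have no constant exons, and each is encoded essentially by a single exon. Most variable promoters are chosen stochastically in each neuron, by CTCF and cohesin looping to distant enhancers, whereas the C-type genes at the end of the alpha and gamma clusters follow other rules and are more widely expressed.

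In GENCODE M21 coordinates (GRCm38), all on the plus strand, the alpha cluster runs from chr18:36930184 to 37187661, the beta cluster from chr18:37264938 to 37524479 and the gamma cluster from chr18:37661793 to 37841873. A first-exon event is named by its donor, the splice site at the end of the first exon, and a last-exon event by its acceptor, the splice site at the start of the last exon. The members had no other kind of event: of 112 distinct events, 64 were first exons, 48 were last exons and 0 were skipped exons, retained introns or alternative exon ends. Over all genes, 10.5% of distinct events were skipped exons, 19.4% were retained introns and 13.3% were alternative exon ends. A listed member had exactly 2 events, 1 first and 1 last exon, in 191 of 200 pairs of gene and library (95.5%), against 46.1% of such pairs over all genes.

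The libraries held 58007, 54641 and 57132 distinct events for saline and 57981, 56546 and 56416 for morphine, and between 14121 and 14791 listed genes. Morphine 6 listed the fewest genes and also the fewest members (29, against 32 to 35 in the other libraries). All 12 medium spiny neuron markers checked, which include Drd1, Drd2, Penk and Ppp1r1b, were listed. Markers of ependyma and choroid plexus, the cells lining the brain ventricles, summed to between 20 and 27 events in the saline libraries and between 16 and 18 in the morphine libraries. Ccdc39 made up the largest part of that sum in each library, and of the 6 markers Foxj1 and Ttr had 2 events in every library while Aqp1 (0, 0 and 0 against 2, 2 and 0) was listed with morphine alone. The part of this in the members' values was not tested. These sums are numbers of listed events and do not measure amounts of RNA. Even for amounts, fewer cells of a type and less RNA per cell cannot be told apart in bulk tissue.

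The 3 clusters were listed to very different extents. Of the 22 gamma genes, 21 were listed and 16 were listed in all 6 libraries. Of the 14 alpha genes, 13 were listed and 5 were listed in all 6. Of the 22 beta genes, 8 were listed, 0 in all 6 libraries and 4 in 1 library alone. The genes listed in no library were Pcdha8, the polymorphic pseudogene Pcdhgb8, and Pcdhb1, Pcdhb2, Pcdhb3, Pcdhb4, Pcdhb5, Pcdhb7, Pcdhb9, Pcdhb13, Pcdhb15, Pcdhb16, Pcdhb17, Pcdhb18, Pcdhb19 and Pcdhb21. An unlisted gene had no first exon, last exon or splicing event recorded, which does not show that its RNA was absent.

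Variable exons of the gamma cluster were listed most regularly. The annotated donor at the end of the variable exon was listed for 17, 20 and 21 of 22 gamma genes in saline and for 19, 20 and 16 in morphine. For 15 gamma genes it was listed in all 6 libraries, and over all exons and libraries 85.6% of the possible listings were present. The 3 gamma C-type genes had all of theirs, and the share was 87.5% for the 12 gamma A genes and 76.2% for the 7 gamma B genes, which include Pcdhgb8. The incomplete gamma genes were Pcdhga1 (2 libraries), Pcdhga4 (3), Pcdhgb2 and Pcdhgb5 (4 each), and Pcdhga10 and Pcdhga12 (5 each). Pcdhgb2 and Pcdhgb5 were missing from the same libraries, saline 1 and morphine 6, so both groups contain a library without them.

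The alpha cluster varied more from library to library. Its annotated donors were listed for 8, 6 and 9 of 14 genes in saline and for 11, 8 and 10 in morphine, which is 61.9% of the possible listings. The donors of Pcdha5, Pcdha7 and the C-type gene Pcdhac2 were listed in all 6 libraries. Those of Pcdha9 and Pcdha10 were listed in 5 libraries, those of Pcdha3 and Pcdha4 in 4, and that of Pcdha6 in morphine 4 alone. More morphine than saline libraries listed the donor for 7 alpha genes, fewer for 2 and equally many for 5. For gamma donors the tally was 0 more, 3 fewer and 19 equal. The groups overlapped in the number of listed alpha donors (mean ± SD over n = 3 libraries, 7.67 ± 1.53 with saline and 9.67 ± 1.53 with morphine), as they did for gamma donors (19.3 ± 2.08 and 18.3 ± 2.08). With any first-exon site inside the variable exon counted, the alpha numbers were 10, 7 and 11 in saline and 11, 9 and 11 in morphine. The log2 ratio of the alpha means was then 0.15, against 0.33 for annotated donors alone.

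**Figure D1:**
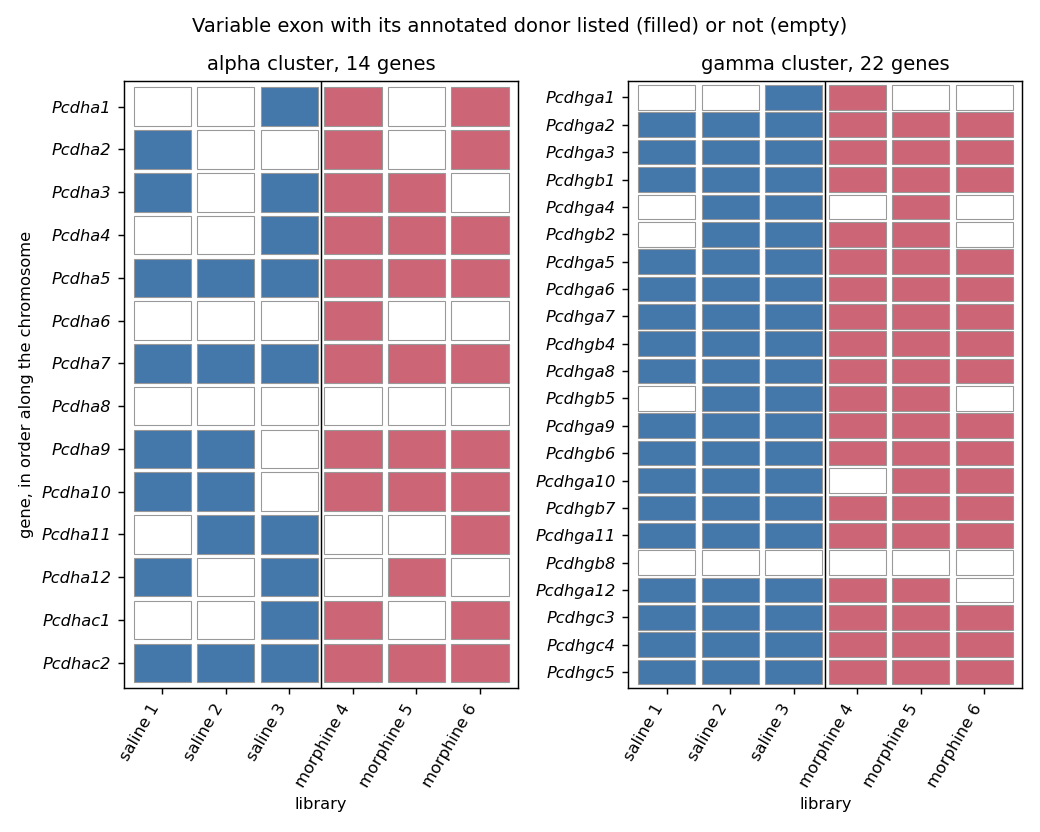
Each row is an alpha (left) or gamma (right) gene in order along the chromosome, each column is a library, and a filled cell (blue for saline, red for morphine) marks that the annotated donor of the gene's variable exon was listed. Gamma rows are filled across all 6 libraries for 15 of 22 genes and alpha rows for 3 of 14.

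C-type genes are the members nearest to the constant exons of their clusters. Pcdhac2, Pcdhgc3 and Pcdhgc4 each had 2 events in every library. Pcdhac1 had 0, 0 and 2 events in saline and 2, 0 and 2 in morphine, so it was present in and missing from libraries of both groups. Pcdhgc5 had 4 events in every library, the highest number of any member by mean, because 3 annotated first exons were listed each time. Their donors were chr18:37822134, at the end of the variable exon, and chr18:37819698 and 37819712, both of which lie inside that exon and close first exons of 147 bases.

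Pcdha1, the first gene of the alpha cluster, had 2, 0 and 2 events in saline and 4, 2 and 3 in morphine. Morphine 4 and 6 are the highest, and the groups overlap because saline 1 and 3 equal morphine 5. It averaged 1.33 ± 1.15 with saline against 3 ± 1 with morphine (SD over n = 3 libraries; two-sided exact permutation p = 0.3), and limma gave a log2 difference of 1.22 ± 0.77 (SE; adjusted p = 0.905). The further events in morphine 4 and 6 were first exons whose donors lie inside the variable exons of other genes: in morphine 4 the donors chr18:36960667, inside the variable exon of Pcdha5, and chr18:36969357, inside that of Pcdha6, and in morphine 6 the donor chr18:36946425, inside that of Pcdha3. Of these first exons, the ones ending in the exons of Pcdha5 and Pcdha3 lay mostly before them, with 228 of 2858 and 321 of 2307 bases inside. The annotated donor of Pcdha1 itself, chr18:36932672, was listed in saline 3, morphine 4 and morphine 6.

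Several alpha gene IDs listed a first exon whose donor lies, unannotated, inside the variable exon of another gene. Counting Pcdhga12 in saline 3, there were 12 such listings, of which 9 began before the exon they ended in and 8 had most of their length before it. Pcdha6 had 2 events in every library, yet 5 different donors stood behind that constant number. They were its own annotated donor chr18:36970137 in morphine 4, an unannotated donor in its own exon (chr18:36969357) in saline 1, 2 donors inside the exon of Pcdha5 in saline 2 (chr18:36962041) and saline 3 (chr18:36960667), and 1 inside the exon of Pcdha3 (chr18:36946425) in morphine 5 and 6. Pcdha11 listed its own donor in saline 2, saline 3 and morphine 6, and in saline 1 and morphine 4 the donor chr18:37005550 inside the exon of Pcdha10. Pcdha9 listed its own donor in 5 libraries and in saline 3 the donor chr18:36994014, inside the exon of Pcdha8, the alpha gene that was never listed itself. Such donors occurred in libraries of both groups.

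Some first exons reached over the variable exons of several genes. There were 5 such listings, 2 in saline 1 and 3 in morphine 4, of which 2 covered each exon whole and 3 ended inside the last one. The longest, 12810 bases in morphine 4 under Pcdhga12, covered the exons of Pcdhga11, Pcdhgb8 and Pcdhga12. Under Pcdha11, a first exon in saline 1 (8729 bases) and in morphine 4 (7671 bases) covered the exon of Pcdha9 and the first 348 of 2499 bases of that of Pcdha10. Under Pcdhga10, one covered the exons of Pcdhgb6 and Pcdhga10 in saline 1 (7512 bases), and in morphine 4 (5296 bases) that of Pcdhgb6 with 397 of 2613 bases of that of Pcdhga10. Of these 5, 4 began at the annotated exon start of a member. That member was Pcdhgb6, Pcdha9 or Pcdhga11, and never the gene that listed the first exon. A stricter measure takes only the annotated transcript starts of the listing gene itself. By that measure, 89.2% of all first exons of the members began at such a start (96.9% in gamma, 80.6% in alpha and 64.7% in beta), compared with 61.7% over all genes.

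In all, the members' events used 74 distinct splice sites, 59 donors of first exons and 15 acceptors of last exons. Of these, 44 were annotated, 24 were unannotated on the plus strand and 6 lay on the opposite strand. None of the 24 unannotated sites occurred in all 6 libraries (0 of 24) and 18 occurred in 1 library alone. Of the 23 unannotated sites where the reference transcripts cover the neighbouring intron bases, 18 had the canonical GT of a donor or AG of an acceptor. All 9 of the unannotated alpha sites were donors, and 8 of them had the GT.

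Opposite-strand events accounted for the whole entry of a gene in 4 cases. Pcdhga1 was listed in 5 libraries with 2 events each, but in saline 1, saline 2 and morphine 5 both were on the minus strand, and its own donor was listed in saline 3 and morphine 4 alone. Pcdha2 had such a pair in saline 2. Whether the libraries kept the strand of the RNA is not given in the sources used here, so the gene of origin of these events cannot be told.

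Genes of the alpha and gamma clusters end in shared constant exons, and the catalogues list a shared end under each gene ID that uses it. The gamma acceptor chr18:37839903, at the start of the last constant exon, was listed under 18, 20 and 21 gamma gene IDs in saline and 20, 20 and 16 in morphine. No other splice pattern in any of the 6 libraries stood under more gene IDs. The alpha acceptor chr18:37184946 came second in every library, with 8, 6 and 8 IDs in saline and 8, 8 and 7 in morphine. Of the members' patterns, between 6.67% and 11.1% per library were listed under several gene IDs, against 0.258% to 0.292% over all genes.

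The alpha cluster had a second last exon. Its acceptor chr18:37185476 lies within the long form of the last exon and was listed under 3, 2 and 4 alpha IDs in saline and 4, 2 and 4 in morphine. The annotation gives this short form to 5 alpha genes, and 4 of these (Pcdha1, Pcdha2, Pcdha6 and Pcdha11) listed it, whereas 0 of the 9 alpha genes without it in the annotation did. How a structure received its gene ID is not given, so this split cannot show which genes use the short form. In saline 2, for example, Pcdha6 listed the short form with a first exon that lay wholly inside the exon of Pcdha5 (1602 of 1602 bases). Every listed member had exactly 1 last exon in each library. The absence of both forms from 1 library (0 of 14 genes) is therefore no evidence that a gene uses 1 form alone. The short form was listed under the ID of Pcdha6 in all 6 libraries, of Pcdha11 in 5 and of Pcdha2 in 4. The donor listed with it was not always in the gene's own exon. For Pcdha6 it lay in the exon of Pcdha3 or Pcdha5 in saline 2, saline 3, morphine 5 and morphine 6. For Pcdha11 it lay in the exon of Pcdha10 in saline 1 and morphine 4. Pcdha1 had the short form in 4 libraries and the long form in saline 1.

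The gamma genes shared their acceptor but not the listed end of the last exon. An end at chr18:37840051, which makes an exon of 149 bases annotated for Pcdhgc5, stood under 12, 6 and 1 gamma IDs in saline and 9, 0 and 10 in morphine. An end at chr18:37841873, the annotated end of most gamma transcripts and an exon of 1971 bases, stood under 0, 9 and 15 IDs in saline and 6, 15 and 1 in morphine. Libraries of both groups lay at each extreme: saline 1 and morphine 6 mostly had the short end, saline 3 and morphine 5 mostly the long one. Another end at chr18:37841870 stood under 4 IDs in every library. Each group thus held a library with mostly the short end and one with mostly the long end.

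**Figure D2:**
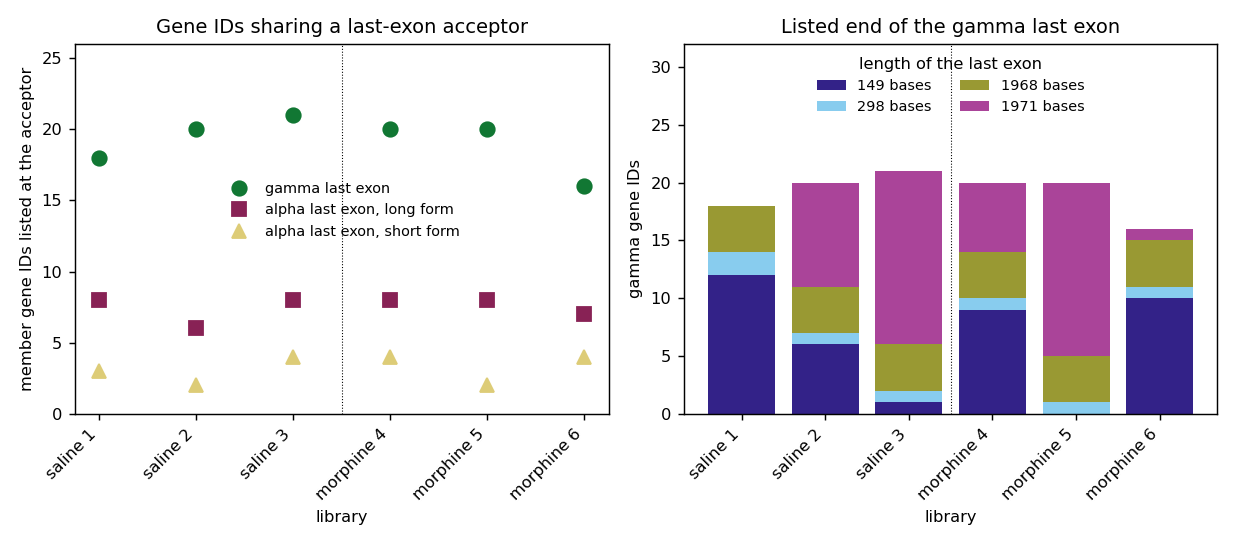
The left panel plots, for each library, the number of member gene IDs listed at the gamma acceptor (circles) and at the long (squares) and short (triangles) alpha acceptors. The right panel stacks the gamma gene IDs by the length in bases of the listed last exon: the 149-base form stands under 12 IDs in saline 1 and 0 in morphine 5, the 1971-base form under 0 and 15.

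The catalogues carry a whole number of 0 or below beside every event, in a column named for FPKM. Its meaning is not given in the sources used here, and it is described without being read as expression. At the gamma acceptor chr18:37839903 it was -20, -22 and -24 in the saline libraries against -22, -23 and -18 in the morphine libraries, the lowest value of each whole library. The lowest value outside the members was between -16 and -19 per library. The value at this acceptor equalled the sum of the values at the gamma plus-strand donors in 5 of 6 libraries, and in morphine 5 the sum was -22 against -23. For alpha, the donors summed to -12, -9 and -14 in the saline libraries against -17, -11 and -15 in the morphine libraries. The alpha last exons summed to -14, -10 and -16 against -18, -11 and -16.

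Few beta genes were listed. The annotation gives a single exon to 18 of the 22, of which 5 were listed, and 2 exons to the other 4, of which 3 were listed. Over all protein-coding genes, 10.1% of those with 1 annotated exon were listed, and 75.5% of those with more. Pcdhb6 had 2 events in saline 1, saline 3, morphine 5 and morphine 6, and Pcdhb8 had 2 in saline 2, saline 3, morphine 4 and morphine 5. Both genes used annotated sites in each of these libraries, with introns of 1660 and 1023 bases that lie within the gene. Each was therefore listed in 2 libraries of either group.

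The other 6 listed beta genes used unannotated sites. Pcdhb12 was listed in morphine 5 alone, Pcdhb14 and Pcdhb22 in saline 2 alone, and Pcdhb20 in morphine 4 alone. Their last exons were long, from 1868 bases in Pcdhb12 to 11889 bases in Pcdhb14, where the exon ran past the annotated end of the gene. The first exon of Pcdhb22 began at the annotated start of its neighbour Pcdhb21. Over the 8 beta donors, 2 had the GT, and over the 8 readable acceptors 8 had the AG. The annotated donors of Pcdhb6 and Pcdhb8 were among those without the GT.

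The neighbours Pcdhb10 and Pcdhb11 were each listed in 1 treatment group alone. Pcdhb11 had 0 events in all 3 saline libraries and 2 in all 3 morphine libraries, and Pcdhb10 had 2, 2 and 0 events in saline and 0 in all 3 morphine libraries. Pcdhb11 does not overlap between the groups (two-sided exact permutation p = 0.1, the smallest that 3 against 3 can give), and Pcdhb10 does, because saline 3 is also at 0. Limma gave Pcdhb11 a log2 difference of 2.32 ± 0.03 (SE, on the log2 of events + 0.5; adjusted p = 6.05e-06), from libraries with no spread within either group. With 0 events in saline the size follows from the pseudocount, and was 4.39 at 0.1 and 1.58 at 1. For Pcdhb10 the log2 difference was -1.55 ± 0.77 (SE; limma adjusted p = 0.905).

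The positions behind these numbers were in part the same under both gene IDs. The donor chr18:37414159, inside Pcdhb10, was listed under Pcdhb10 in saline 1 and 2 and under Pcdhb11 in morphine 4 and 6. The acceptor chr18:37416396, between the genes, was listed under Pcdhb10 in saline 1 and 2 and under Pcdhb11 in morphine 6. In saline 1 and 2 the last exon at that acceptor was 167 and 179 bases long, and in morphine 6 it was 15882 bases long and covered all of Pcdhb11. In morphine 4 the same donor was followed by an acceptor inside Pcdhb11 (chr18:37424710), 10550 bases on. Morphine 5 shared no site with the other libraries: its donor chr18:37421653 and acceptor chr18:37422468 both lie within Pcdhb11. With events under several gene IDs left out, or with annotated sites alone, Pcdhb11 was not called and its groups overlapped or held no event.

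**Figure D3:**
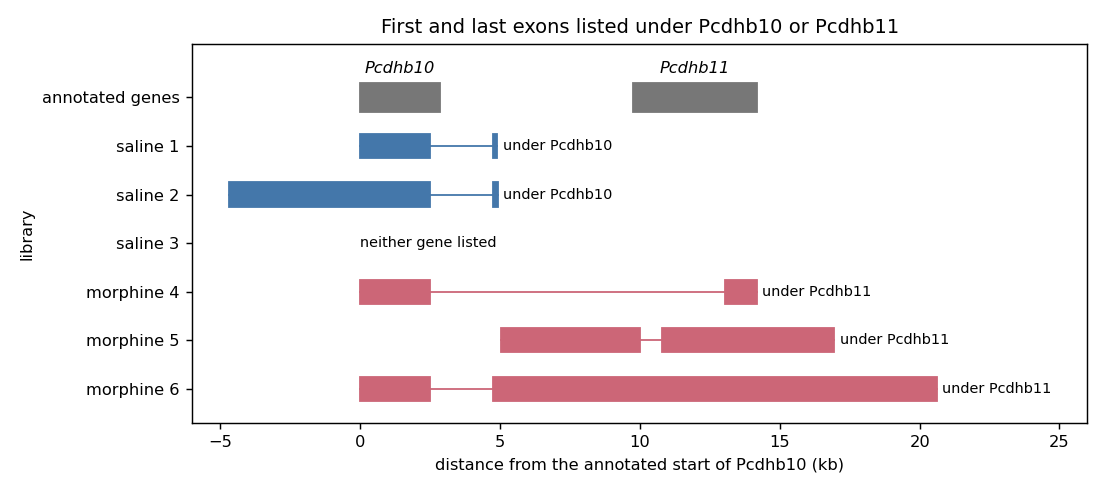
For each library the first and last exon (boxes) listed under Pcdhb10 or Pcdhb11 and the intron between them (line) are drawn to scale against the annotated genes (grey), as distance in kb from the annotated start of Pcdhb10. Saline 1, saline 2, morphine 4 and morphine 6 share the donor, and the gene ID is Pcdhb11 where the last exon reaches into that gene.

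The comparison of morphine with saline asks whether conditioning with morphine goes with a different set of listed structures. Over all members, events per library were 66, 70 and 73 in saline against 74, 72 and 61 in morphine (69.7 ± 3.51 and 69 ± 7, SD, n = 3 each). The alpha cluster had 22, 18 and 24 events in saline and 26, 20 and 23 in morphine (log2 ratio 0.11). The beta cluster had 4, 8 and 4 against 6, 8 and 4 (log2 ratio 0.17), and the gamma cluster 40, 44 and 45 against 42, 44 and 34 (log2 ratio -0.10). Leaving out 1 library took the log2 ratio to between 0 and 0.20 for alpha, between -0.09 (without morphine 5) and 0.58 (without saline 2) for beta, and between -0.18 and 0 (without morphine 6) for gamma. The groups overlapped in all 3 clusters, and morphine 6 had the fewest gamma events of any library.

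**Figure D4:**
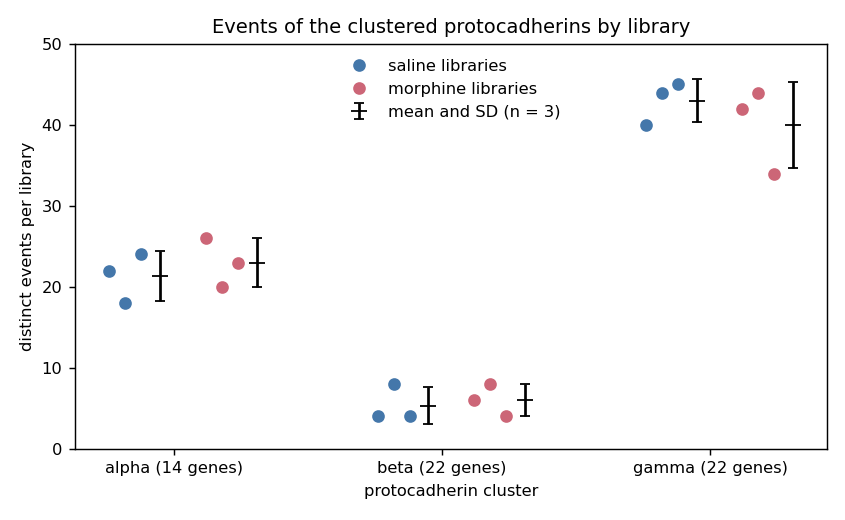
Points are the distinct events per library in each cluster (blue for saline, red for morphine), and bars give the mean and SD of 3 libraries. The groups overlap in each cluster, with gamma between 34 and 45 events, alpha between 18 and 26 and beta between 4 and 8.

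Of the 58 members, 38 had the mean of at least 0.5 events per library that the limma test required. Of these 38, 1 was called at an adjusted p under 0.05 (Pcdhb11, higher in morphine), beside 0.638% of all genes tested in either direction and 0.199% with morphine higher. It was also the 1 member with an unadjusted p under 0.05. The same gene was the 1 member whose groups did not overlap (2.63% of those tested), beside 3.07% of all genes, of which 1.64% had morphine above and 1.43% saline above. For non-overlapping groups, a share of 1 in 38 is near that background. For limma calls the same 2.63% is above the 0.638% and 0.199% of all genes, but it rests on 1 gene. With saline 3 left out 2 members were called (Pcdhb10 added, saline higher), and with morphine 5 left out 2 were called (Pcdhga4 added, saline higher). Over all genes the called share was 1.69% in both of these settings. The median log2 difference was 0 in the members and 0 in all genes tested, and 21 tested members (55.3%) had the same count in all 6 libraries, against 22.8% of all genes. That 22.8% is not matched for the number or kind of events. A listed member had exactly 2 events in 95.5% of pairs of gene and library, against 46.1% over all genes.

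Of the 38 tested members, 5 had a positive limma log2 difference, 7 a negative one and 26 a difference of 0. Pcdha4 (0, 2 and 2 events in saline, 2, 2 and 2 with morphine) and Pcdha10 (2, 2 and 0 against 2, 2 and 2) were among the 5, each missing from 1 saline library. Pcdhga4 had 2, 2 and 2 events in saline and 0, 2 and 0 in morphine (limma adjusted p = 0.905), and Pcdhga12 had 2, 2 and 3 against 2, 2 and 0 (limma adjusted p = 0.905). Both were absent from morphine 6, and Pcdhga4 also from morphine 4. Pcdhga4 in saline 1 was listed with an annotated donor inside its variable exon, in a first exon of 698 bases.

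The recurrence of the members' events between libraries is given as a description, without a test. In all 6 libraries the share of distinct events was 36.6% for the members (64.7% in gamma, 19% in alpha and 0% in beta), 20.9% for all genes, and 30.8% for first and last exons of all genes, the closer comparison since the members have no other kind. The member share counts a shared acceptor once for each gene ID that lists it. With each splice site counted once, 23 of the members' 74 sites occurred in all 6 libraries, a share close to that 30.8%. For a pair of libraries of 1 group the members shared 63.5% of their distinct events on average, and for a pair from both groups 64.5%.

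Other genes of the pathway were compared from lists of known roles. Of 11 delta and related protocadherins, which are not clustered, 10 were listed and 0 were non-overlapping or called by limma. The highest by mean were Pcdh7 (7, 7 and 8 events in saline, 8, 9 and 8 in morphine) and Pcdh9 (6, 5 and 9 against 5, 5 and 12). Of 11 genes of CTCF, cohesin and its loaders and other regulators, which act on the variable promoters, 0 were non-overlapping. The highest there were the cohesin loading genes Nipbl (17, 15 and 23 in saline, 15, 12 and 48 in morphine) and Mau2 (17, 8 and 8 against 12, 9 and 7), and the value of 48 stood in morphine 6. None was non-overlapping among 13 genes of silencing or of adding or removing DNA methylation (0 of 13) or among 18 signalling or adhesion partners (0 of 18). The same held for 8 genes of protocadherin proteolysis (0 of 8). Among the partners, the kinase gene Ptk2 (17, 30 and 13 against 23, 35 and 19) and Nlgn1 (10, 12 and 6 against 8, 12 and 9) were highest. Limma called 0 of the 60 tested genes of these 5 lists, and 0 had an unadjusted p under 0.05.

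Among related adhesion genes, 1 of 9 large cadherins was non-overlapping, beside 3.07% of all genes: Dchs2 had 2, 2 and 2 events in saline and 9, 4 and 5 in morphine (limma adjusted p = 0.747). Of 16 classical cadherins 0 were. Among the tissue markers, Rgs9 (4, 4 and 4 against 5, 6 and 6) and Foxp2 (6, 7 and 6 against 17, 10 and 9), both expressed in medium spiny neurons, were higher in every morphine library, and limma called neither. They are 2 of 12 markers, of which others had fewer events with morphine, such as Drd2 (4, 4 and 3 against 3, 2 and 3) and Tac1 (6, 6 and 6 against 3, 6 and 5), and the median log2 difference of the 12 was 0. The ciliary gene Ccdc39 (12, 19 and 14 against 8, 9 and 11) and the choroid plexus gene Tmem72 (2, 2 and 2 against 0, 0 and 0) were higher in every saline library. Limma called Tmem72 (adjusted p = 6.05e-06), from libraries with no spread within either group, and its two-sided exact permutation p was 0.1. The 3.07% of all genes also stands beside the 2 of 12 medium spiny markers and these 2 of 6 ependyma and choroid plexus markers. The other 4 markers of that list overlapped between the groups. Of 3 serotonergic markers, Tph2 alone was listed.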

How the data were processed

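RNA-seq libraries (3 saline, 3 morphine) had been turned by the authors into 1 event catalogue each. The deposited column headed fpkm holds whole numbers from -24 to 0 and was taken as a score, per the file headers and values, and used for description alone. Neither the software that assembled transcripts and called events, nor strandedness, nor build is given in the sources used here. Read depth is unknown, and no counting error could be attached to a value. Boundaries were read on GENCODE M21 (GRCm38), where every boundary of 85.8% of distinct events was annotated; 15815 of 15939 gene IDs matched and 124 did not. RefSeq named the Pcdha10 gene ID. Distinct events (gene ID, type, pattern, strand) were counted per gene and library without the 8 codes ending in OFF.

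Limma 3.58.1 (R 4.3.3; lmFit, eBayes with trend) was fitted to log2(events + 0.5) for 15040 genes with a mean of at least 0.5, with Benjamini-Hochberg adjustment over all of them; single genes were also compared by a two-sided exact permutation test (smallest p 0.1). On simulated data limma recovered few of the smaller changes at moderate event numbers and most of the larger changes in genes with more events. Genes with as few events as the members were not simulated, and a member that was not called may still differ. Tables were made with pandas 2.3.3.

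Members and lists were chosen with earlier results of these data known. Named were the C-type genes, Pcdhb10 and Pcdhb11, the 3 members per cluster with the highest mean (ties not separated), every non-overlapping member, those listed in 1 library or 0, those sharing a site in all 6, non-overlapping genes of the other lists and the 2 highest of 3 lists. Pcdha2, Pcdha3, Pcdha4, Pcdha10, Pcdhga1, Pcdhga4, Pcdhga10, Pcdhga12, Pcdhgb2 and Pcdhgb5 were named after their values were seen. Alternatives were other pseudocounts, filters, scalings, limma settings, sets of events, and leaving out each library.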

Additional observations from a re-analysis of the deposited data

How the results depend on the processing

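The log2 ratios of the 3 clusters moved by less than 1 SD between libraries in all alternatives that gave a value. In size they are themselves below that SD, which on the log2 scale was 0.20 for alpha, 0.54 for beta and 0.15 for gamma. Leaving out 1 library took alpha from 0.11 to as low as 0 (without saline 2) and beta from 0.17 to between -0.09 and 0.58. It took gamma from -0.10 to as high as 0 (without morphine 6). Within 1 SD also lay the number of shared splice sites (3.17 per library) and, in alternatives chosen after seeing the data, the numbers of variable exons with a listed donor. Without first and last exons no member has an event, so that setting gave no value. The 1 member called by limma, Pcdhb11, became 0 with annotated events alone and 0 with events under several gene IDs left out. The number of non-overlapping members was also 1 and became 2 at equal totals (Pcdha1 added, while the share over all genes rose from 3.07% to 5.44%), 0 with annotated events alone, 0 with events under several gene IDs left out and 0 with each pattern counted once. Leaving out 1 library in turn gave between 1 and 2 called members and between 1 and 3 non-overlapping members: Pcdhb10 was added to both without saline 3, and without morphine 5 Pcdhga4 was added to both and Pcdha1 to the non-overlapping ones. Over all genes these settings raised the called share from 0.638% to between 1.69% and 1.91%, and the non-overlapping share to between 6.51% and 7.40%. No paired analysis was possible because the replicate numbers of the groups (saline 1 to 3, morphine 4 to 6) share none. Read depth is unknown, so what it limits cannot be stated.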
